A study of Mus musculus with 8 samples.

Results

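The SOCS family, Cish and Socs1 to Socs7, encodes the feedback inhibitors of cytokine signalling. All 8 members were found by gene symbol among the 54532 genes of the table, and all 8 were among the 13981 genes that passed the low-count filter. They were measured in bulk messenger RNA of CD4+ T cells, or helper T cells, taken from the spleen of wild-type mice. The vehicle group held 4 libraries. The dimethyl succinate group held 4 libraries of cells given that cell-permeable ester of succinate, a tricarboxylic acid cycle intermediate, for 3 days. The labels give no strain, sex, age, dose or culture condition, and they leave unsaid whether each library is its own animal or culture. The p-values therefore measure the spread between these libraries, which may be technical only.

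Many cytokines signal through Janus kinases (JAKs), which phosphorylate STAT transcription factors. STATs then induce Cish and several Socs genes, whose products bind receptors or JAKs and shut the signal off. Each SOCS protein has an SH2 domain, which binds phosphotyrosine, and a C-terminal SOCS box, which recruits elongins B and C and a cullin ubiquitin ligase that marks bound proteins for destruction. In helper T cells, CIS and SOCS2 are best known as products of STAT5 signalling, SOCS1 as a brake on interferon gamma and interleukin-2 signalling, and SOCS3 as a brake on cytokines that use the gp130 receptor chain. SOCS4 to SOCS7 are less studied and have been linked to receptor tyrosine kinases and insulin signalling.

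Short promoter stretches are shown for Cish, Socs1 and Socs3, because these 3 members had the highest level per length and are known cytokine targets. RefSeq windows (GRCm38.p6), 250 bases before to 50 after a start, were matched for 4 members, Cish, Socs1, Socs3 and Socs4. Capitals mark matches to TTCNNNGAA, the core letters of STAT sites, or to GAAA, any 2 bases and GAAA, letters found in interferon-stimulated response elements, searched on both strands. All stretches are printed 5′ to 3′ on the gene's strand.
Cish, chr9:107296656-107296685, plus strand: gttTTCCTGGAAagTTCTTGGAAatctgtc
Socs1, chr16:10785557-10785656, minus strand: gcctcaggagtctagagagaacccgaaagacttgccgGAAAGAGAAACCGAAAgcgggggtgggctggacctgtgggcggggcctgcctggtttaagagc
Socs3, chr11:117969457-117969556, minus strand: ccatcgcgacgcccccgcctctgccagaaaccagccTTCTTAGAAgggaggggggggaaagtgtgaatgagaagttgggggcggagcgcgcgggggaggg

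The Cish window held 2 matches to the STAT letters, which begin at bases 1 and 12 of the RefSeq transcript and lie within an annotated exon of GENCODE M21. Among all 32851 windows of the same length, 8.3% held at least 1 match to these letters and 0.457% held 2 or more. The Socs3 window held 1 such match, 154 bases before the RefSeq start. That match lies inside the span of the Socs3 gene in GENCODE M21, outside its annotated exons. The Socs1 window held none, and instead had 2 matches to the interferon response letters that overlap each other and begin 83 and 77 bases before the start. Those letters were in 3.44% of windows. The Socs4 window held neither set of letters. A match is a run of letters and no measure of binding, and a window without one says nothing of the factor.

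The 8 members differed widely in level, and Cish, Socs1 and Socs3 led on the deposited scale. On the scale of deposited FPKM, which divides counts by a listed gene length, Cish stood highest at 89.8 ± 7.16 (SD, n = 8 libraries), with a range of 77.8 to 97.8. Socs1 followed at 64.4 ± 3.13 FPKM and Socs3 at 38.5 ± 2.66 FPKM. Below them came Socs4 at 13.9 ± 1.38, Socs7 at 11.8 ± 0.725, Socs2 at 8.68 ± 0.593, Socs5 at 5.81 ± 0.465 and Socs6 at 2.92 ± 0.429 FPKM. Neighbours in this order did not overlap over the 8 libraries in 6 of 7 pairs. The exception was Socs4 and Socs7, whose ranges overlapped although Socs4 was the higher in 7 of 8 libraries.

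Cish, Socs1 and Socs3 together held most of the family's summed FPKM, and the split was alike in both groups. Cish took 37.2% ± 2.3 of the sum in the vehicle group and 38.9% ± 2.14 in the other (SD, n = 4). Socs1 took 27.7% ± 1.07 and 26.9% ± 0.807, and Socs3 took 16.7% ± 0.607 and 15.9% ± 0.417. Each of these differences in share was under 2 SDs of the vehicle group. The shares depend on the length used: per kilobase of principal transcript, described next, Cish took 51.9% ± 2.17 and 53.6% ± 2.51, Socs1 17.2% ± 0.956 and 16.5% ± 0.613, and Socs3 11.8% ± 0.664 and 11% ± 0.27.

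The place of Socs2 in this order depended on the length used. The listed length is 9531 bases for Socs2, 4.29 times the 2222 bases of its principal transcript in GENCODE M21, and 6419 bases for Cish, 2.25 times its principal 2850. For Socs1 and Socs4 the listed and principal lengths were equal. The listed lengths of Socs5 and Socs6, 4392 and 8225 bases, differed from their exon bases in GENCODE M21, 6416 and 11349. The counts may thus rest on another annotation release than these principal lengths. Per kilobase of principal transcript, a scale chosen after the listed lengths were seen, Cish stood at 203.5 ± 16.3 CPM, Socs1 at 64.8 ± 3.0, Socs3 at 43.9 ± 2.92 and Socs2 at 37.4 ± 2.6 (SD, n = 8). Socs2 was then next to Socs3, below it in 7 of 8 libraries with overlapping ranges. The members of highest and lowest level, Cish and Socs6, were the same on both scales.

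**Figure D1:**
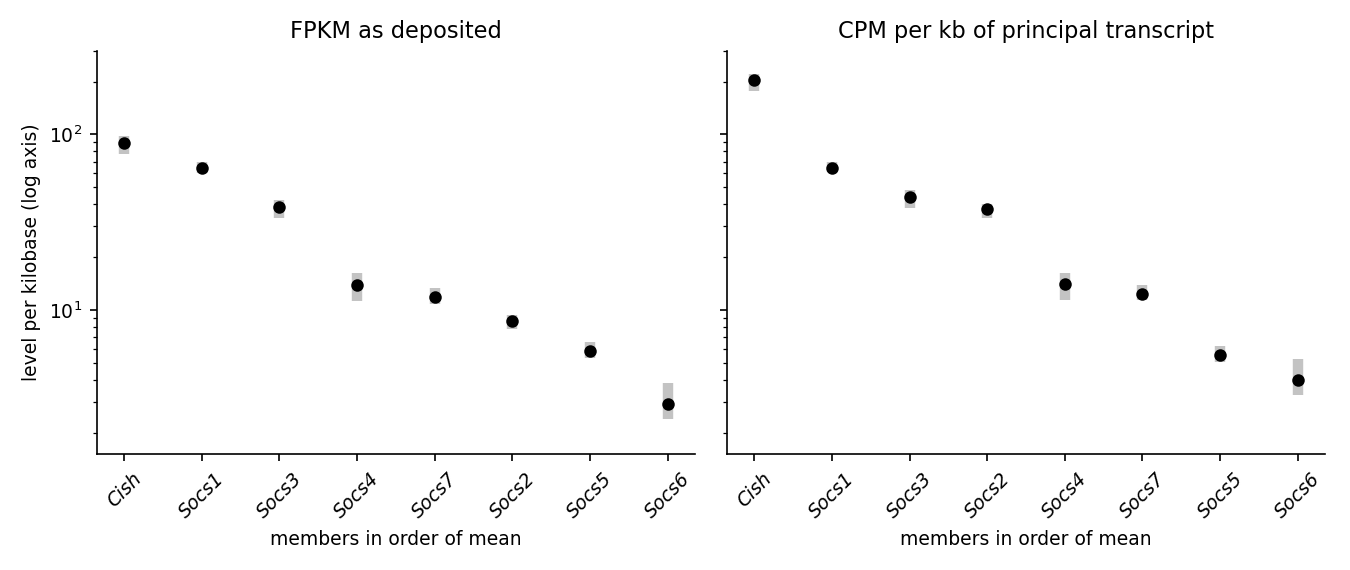
Level of the 8 members per kilobase, on log axes, as deposited FPKM (left) and as CPM per kilobase of the principal transcript (right); points are means of 8 libraries and bars run from the lowest to the highest library. Cish lies highest and Socs6 lowest in both panels, and Socs2 moves from the sixth place to the fourth.

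Dimethyl succinate was not accompanied by a detectable change in any member. By the quasi-likelihood test of edgeR, 0 of the 8 had an adjusted p below 0.05, where 0% of all tested genes did, and 0 had an unadjusted p below 0.05, where 5.76% of all tested genes did. DESeq2 and limma-voom also gave 0 and 0. The smallest adjusted p among the members was 0.802. Exact two-sided permutation p-values over the 70 splits of 4 against 4 ran from 0.0571 for Socs3 to 0.857 for Cish, leaving aside Socs1, whose separate groups fix it at the smallest value that 70 splits allow. Log2 ratios, which are fold changes of dimethyl succinate over vehicle on the log2 scale, ran from -0.23 for Socs6 to 0.11 for Socs5, and 6 of 8 lay below 0, as did 50.4% of all tested genes, and 2 lay above 0, as did 49.6%. The median over the members was -0.079, beside -0.0011 over all tested genes. No 95% interval of a member reached a 1.5-fold difference. In bulk RNA, fewer cells that express a gene and less of its RNA per cell cannot be told apart.

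Vehicle replicate 4 stands apart from the other 7 libraries and bears on several values below. Its share of mitochondrially encoded counts was 0.252%, against 1.16% to 1.48% in the others, and its mean correlation with the others over genes of at least 10 CPM was 0.969, against 0.988 to 0.991. The summed level of 9 CD4 T cell markers was 2315 CPM in it, against 2838 to 2947 in the dimethyl succinate libraries, and that of 6 B cell markers was 54.5 CPM, against 88.7 to 94.5. It was also the lowest vehicle library for the CD8 T cell, granulocyte and stromal lists below and the highest for the monocyte and erythroid lists. Total counts ran from 13407295 to 16688854 per library. Markers of other cells were low beside this: summed levels were at most 96.3 CPM under vehicle and 94.5 under dimethyl succinate for B cell markers, 14.7 and 13.4 for 4 NK cell markers, and 13.4 and 14.1 for 8 monocyte, macrophage and dendritic cell markers. Of the other lists, 2 CD8 T cell markers summed to 5.5 to 5.98 and 5.85 to 7.54 CPM, 5 granulocyte and mast cell markers to 7.65 to 11.4 and 10.3 to 13.4, and 5 erythroid and platelet markers to 4.86 to 11 and 4.78 to 6.18. The 4 stromal and endothelial markers summed to 28.0 to 39.2 and 33.7 to 38.5 CPM, with Col3a1 and Cdh5 at 0 counts, as was S100a9 of the granulocyte list. The part of these cells in the results was not tested.

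Cish encodes CIS, an inhibitor of interleukin-2 and STAT5 signalling, and was the most abundant member, ranking 200 of 13981 tested genes by CPM. The gene lies on the plus strand of chromosome 9 from 107296026 to 107302784 (GRCm38), and its principal transcript has 3 exons. Its levels were 631, 554, 596 and 529 CPM in vehicle replicates 1 to 4, and 630.5, 598, 598 and 504 CPM in dimethyl succinate replicates 1 to 4. Dimethyl succinate replicate 4 was below every vehicle library, and the other 3 lay within the vehicle range. Group means were 577 ± 45.4 CPM under vehicle and 582 ± 54.7 CPM under dimethyl succinate (SD, n = 4). This is a log2 ratio of 0.012 ± 0.083 (SE), and its 95% interval runs from -0.17 to 0.19. It took the opposite sign without vehicle replicate 4, at -0.027, and the interval then ran from -0.16 to 0.11. Cish shares 7.46% of its exon bases with the antisense gene Gm17041 and 4.07% with the pseudogene Gm17040 on the opposite strand. Counting by strand is not stated in the sources used here, and these genes had at most 0 and 23 counts in a library, against 7602 or more for Cish.

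Socs2, the other member best known as a STAT5 target and a regulator of growth hormone signalling, showed the same lack of separation. It stood at 86.9, 89.3, 86.1 and 74.5 CPM in vehicle replicates 1 to 4, and at 74.7, 83.6, 82.3 and 88.2 CPM in dimethyl succinate replicates 1 to 4. Vehicle replicate 4 and dimethyl succinate replicate 1 were the low libraries, 1 in each group. The means were 84.2 ± 6.6 and 82.2 ± 5.61 CPM (SD, n = 4), a log2 ratio of -0.034 ± 0.075 (SE). Leaving out vehicle replicate 4 gave -0.088 ± 0.059, and leaving out dimethyl succinate replicate 1 gave 0.011.

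Socs1, whose product inhibits JAK kinases directly, was the only member whose groups did not overlap. It stood at 188.2, 188.6, 202.8 and 198.9 CPM in vehicle replicates 1 to 4, and at 186.3, 179.3, 185.1 and 177.6 CPM in dimethyl succinate replicates 1 to 4. Every vehicle library was above every dimethyl succinate library, but the nearest pair, vehicle replicate 1 and dimethyl succinate replicate 1, lay within 2 CPM of each other. Of all tested genes, 4.82% had groups that did not overlap and 2.32% had every dimethyl succinate library below, so 1 of 8 members lies near the background. Means were 195 ± 7.35 and 182 ± 4.28 CPM (SD, n = 4), a log2 ratio of -0.096 ± 0.055 (SE), and the 95% interval spanned -0.22 to 0.023. In the quasi-likelihood test of edgeR the unadjusted p was 0.105 and the adjusted p was 0.802. The Socs1 gene spans bases 10782240 to 10785536 of chromosome 16 (GRCm38, minus strand).

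Socs3, which blocks signalling by interleukin-6 and related cytokines, was lower in the same direction with overlapping groups. Its vehicle levels were 118, 112, 115 and 122 CPM in replicates 1 to 4, and its dimethyl succinate levels 108, 111, 113 and 97.3 CPM. Dimethyl succinate replicate 3 exceeded vehicle replicate 2, and dimethyl succinate replicate 4 was the lowest by more than 10 CPM. Its log2 ratio of -0.12 ± 0.064 (SE) had a 95% interval of -0.26 to 0.013, and was -0.080 without dimethyl succinate replicate 4 and -0.10 without vehicle replicate 4. The quasi-likelihood test of edgeR gave an unadjusted p of 0.073 and an adjusted p of 0.802. The Socs3 gene spans bases 117966079 to 117970047 of chromosome 11 (GRCm38, minus strand).

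**Figure D2:**
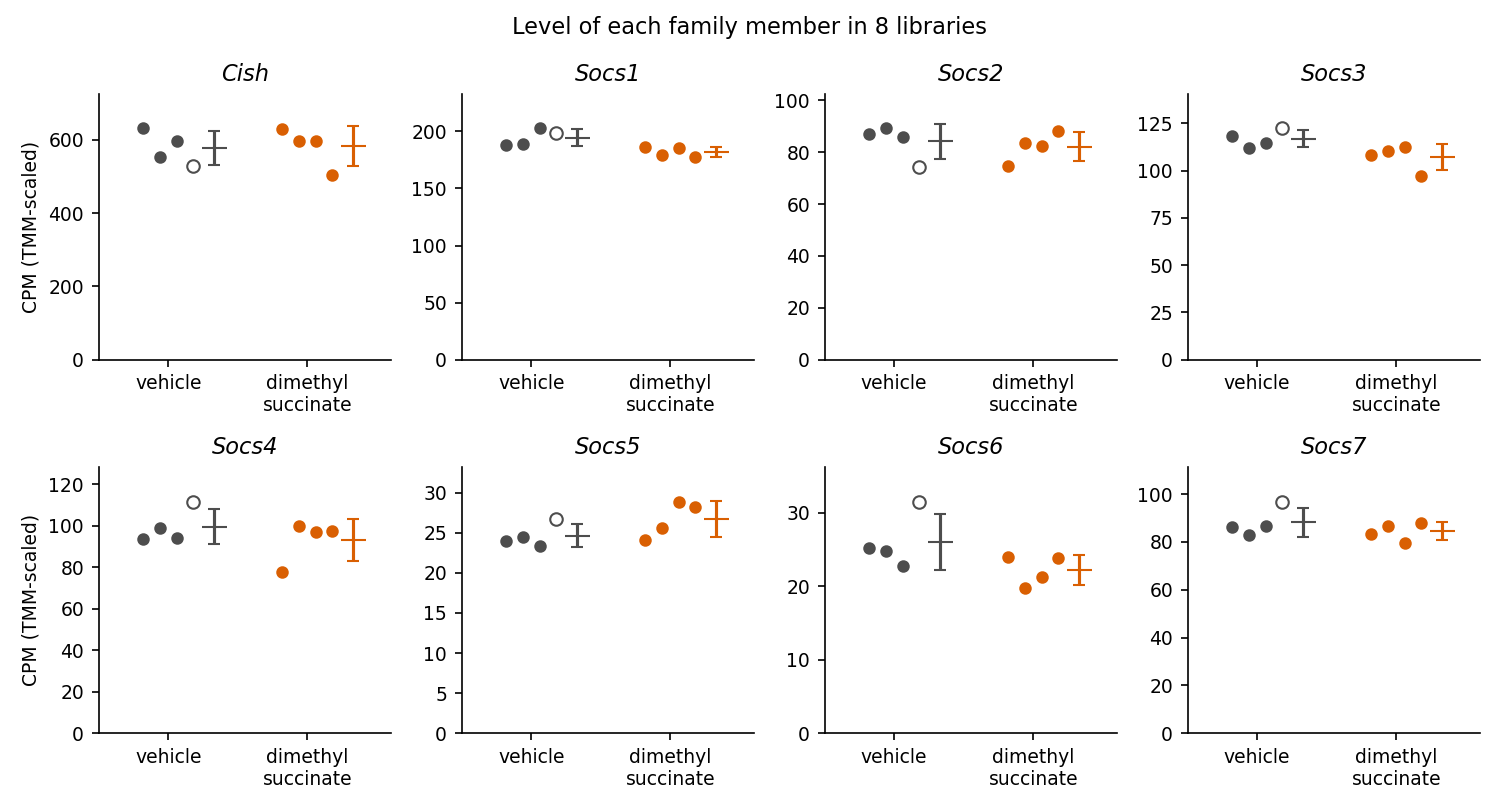
TMM-scaled CPM of each member in the 4 vehicle (grey) and 4 dimethyl succinate (orange) libraries, replicates 1 to 4 from left to right, with the group mean and SD beside the points; the open circle is vehicle replicate 4. Only the Socs1 groups do not overlap, and the open circle is the highest vehicle library for Socs3, Socs4, Socs5, Socs6 and Socs7 and the lowest for Cish and Socs2.

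Socs6, which binds the receptor KIT and the kinase LCK, had the lowest level of the family per length and, over all 8 libraries, the log2 ratio farthest from 0; without vehicle replicate 4 that was Socs5. It stood at 25.2, 24.8, 22.7 and 31.5 CPM in vehicle replicates 1 to 4, and at 24.0, 19.8, 21.3 and 23.8 CPM in dimethyl succinate replicates 1 to 4. Vehicle replicate 4 was well above the other 7, and vehicle replicate 3 was below 2 of the dimethyl succinate libraries. Its log2 ratio of -0.23 ± 0.112 (SE) had a 95% interval of -0.47 to 0.011. Without vehicle replicate 4 it was -0.13 ± 0.090. Socs6 was the member with an unadjusted p below 0.05 in some alternatives: 0.0289 without vehicle replicate 3, 0.0384 when low counts were not filtered and 0.0399 when the title number was a block. Its adjusted p in the quasi-likelihood test of edgeR was 0.706, 0.745 and 0.693 in these, and at least 0.689 over all alternatives run.

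Socs4 and Socs5, a pair of related proteins linked to turnover of the epidermal growth factor receptor, pointed in opposite directions. Socs4 stood at 93.4, 98.9, 94.4 and 112 CPM in vehicle replicates 1 to 4 and at 77.9, 100.1, 97.0 and 97.3 CPM in dimethyl succinate replicates 1 to 4. The high vehicle replicate 4 and the low dimethyl succinate replicate 1 lay on either side of 6 libraries within 7 CPM of each other. Its log2 ratio of -0.097 ± 0.087 (SE) was -0.018 without dimethyl succinate replicate 1 and -0.036 without vehicle replicate 4. Socs5 stood at 23.9, 24.5, 23.4 and 26.7 CPM under vehicle and at 24.0, 25.6, 28.9 and 28.2 CPM under dimethyl succinate. Dimethyl succinate replicates 3 and 4 were above all vehicle libraries, and the rest overlapped. Its log2 ratio was 0.11 ± 0.089 (SE), or 0.16 ± 0.086 without vehicle replicate 4, and it rested on 313 to 472 counts per library.

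Socs7, linked to insulin receptor substrates, lay close together in 7 libraries. It stood at 86.3, 82.8, 86.7 and 96.8 CPM in vehicle replicates 1 to 4 and at 83.4, 86.8, 79.5 and 88.1 CPM in dimethyl succinate replicates 1 to 4. Vehicle replicate 4 was the highest and the other libraries were mixed. The log2 ratio was -0.061 ± 0.067 (SE), and -0.013 ± 0.056 without vehicle replicate 4.

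**Figure D3:**
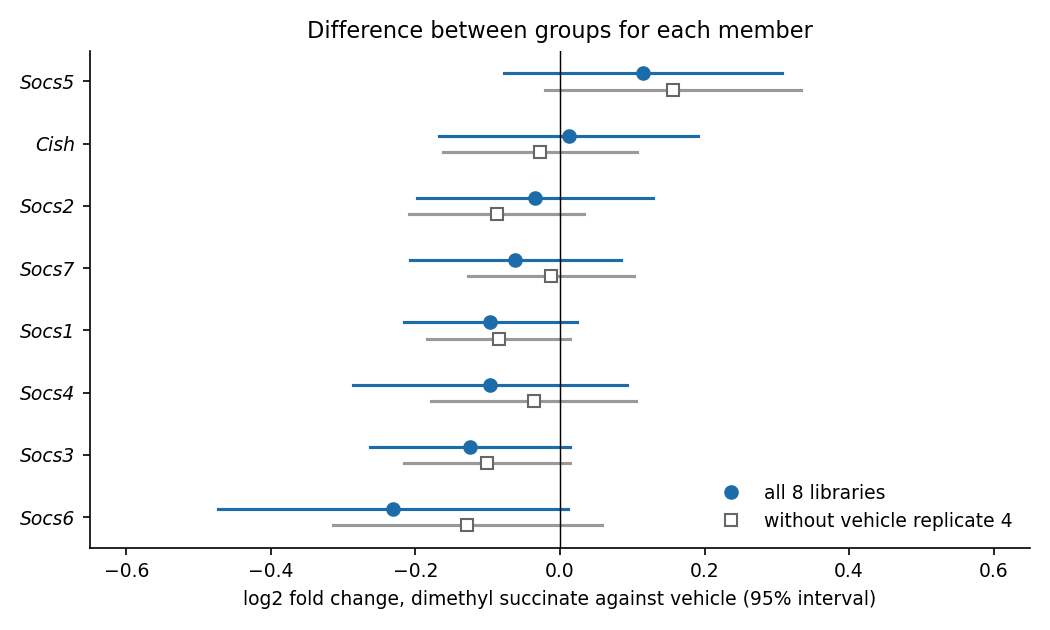
Log2 ratio of each member, dimethyl succinate against vehicle, with its 95% interval, over all 8 libraries (blue circles) and without vehicle replicate 4 (open squares). Every interval spans 0 and lies between -0.47 and 0.33.

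Leaving out vehicle replicate 4 gave 0 members at an adjusted p of 0.05, where 0.197% of 14232 tested genes passed in edgeR. It gave 0 members at an unadjusted p below 0.05, where 8.54% of genes had one. The median over the members was then -0.061, with 7 of 8 below 0, beside 50% of all genes tested without that library. In the authors' deposited table, whose header calls the control DMSO (read here as the vehicle group), the log2 ratios of the members ran from -0.24 for Socs6 to 0.11 for Socs5, and the adjusted p-values from 0.832 for Socs6 to 0.994 for Cish.

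Over all 4 libraries of a group, each member varied by more than counting alone, by a margin that differed between members. In the vehicle group this rested on vehicle replicate 4 for Socs2, Socs5 and Socs7. The coefficient of variation of Cish was 7.86% under vehicle and 9.39% under dimethyl succinate, where counting alone gives 1.1% and 1.04%. For Socs1 it was 3.78% and 2.35%, where counting gives 1.89% and 1.86%. The SD of log2 CPM of Socs1 over 8 libraries was 0.066, larger than that of 8.97% of the 8915 genes with at least 10 CPM. Socs6 lay at the other end, with an SD of 0.198, larger than that of 82.3% of these genes. Without vehicle replicate 4 the vehicle coefficient of variation dropped from 7.84% to 1.93% for Socs2 and from 14.5% to 5.48% for Socs6. It was then 2.3% for Socs5 and 2.5% for Socs7. For Socs2, Socs5 and Socs7 these lie below the 2.87%, 5.31% and 2.81% that counting gives over the 4 vehicle libraries. The other members stayed above their counting values.

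Every library was an extreme, the highest or lowest of the 8, for at least 1 member. Outside vehicle replicate 4 and dimethyl succinate replicate 4, each library was so for 1 or 2 members. Vehicle replicate 4 was the highest of the 8 for Socs3, Socs4, Socs6 and Socs7 and the lowest for Socs2, so it was extreme for 5 of 8 members, as it was for 58.3% of all tested genes. Dimethyl succinate replicate 4 was the lowest of the 8 for Cish, Socs1 and Socs3, 3 of 8 members, where it was the lowest for 8.15% of all tested genes. These are the members with the highest FPKM, and the pattern was picked after the values were seen. In the same library Socs2 deviated by 0.088 and Socs5 by 0.14 above their means on the log2 scale, while Cish and Socs3 each deviated by -0.20. Il2, the growth factor that signals through STAT5, was at 137 CPM in that library, the highest of the 8, and so was Ifng, the gene of interferon gamma, at 269.5 CPM. Irf1, an interferon gamma target, was at 436 CPM, the lowest of the 8. Over all tested genes this library was the highest for 9.03%. Of the other named cytokines, Il10 was also the highest there, at 141 CPM, while Lif at 238.0 and Il21 at 207 CPM were not extreme. Whether these values of a single library go together was not tested.

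**Figure D4:**
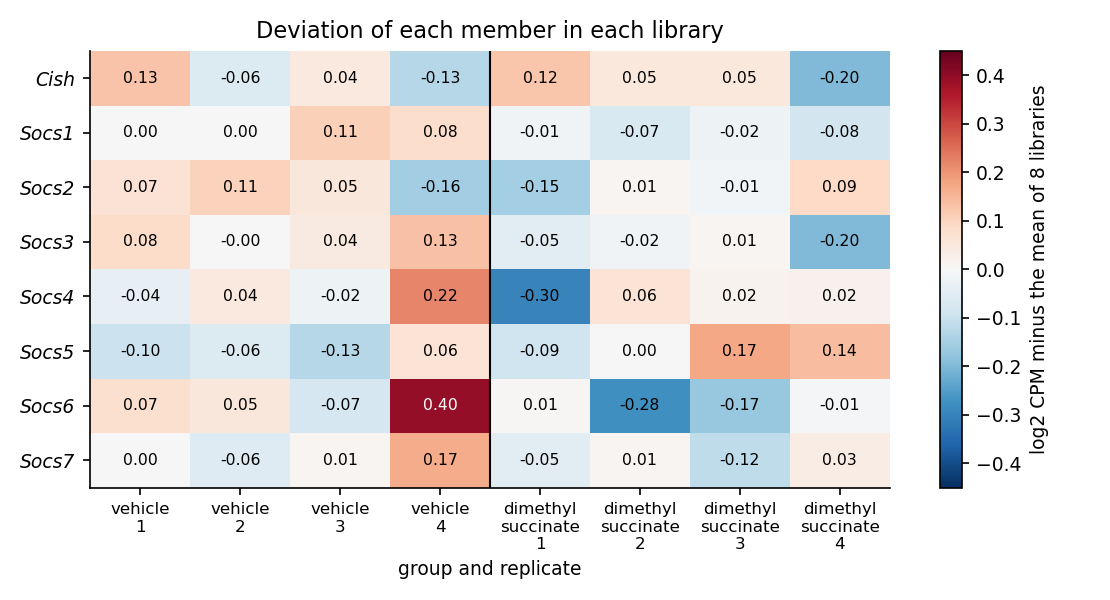
Log2 CPM of each member in each library minus its mean over the 8 libraries, in colour and as printed values; vehicle replicates are on the left of the line and dimethyl succinate replicates on the right. The strongest cells are Socs6 in vehicle replicate 4 (0.40) and Socs4 in dimethyl succinate replicate 1 (-0.30), and dimethyl succinate replicate 4 is low for Cish, Socs1 and Socs3.

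The genes nearest in pattern were sought for Socs6 and Socs4, the members with the largest SD of log2 CPM, by the root mean square difference of centred log2 CPM over the 8 libraries. Those nearest to Socs6 were Ddx55, an RNA helicase, at 0.045, Ufm1, a ubiquitin-like modifier, at 0.047, and Gm17201 at 0.049, where Socs6 itself varied by 0.185 about its mean. Those nearest to Socs4 were Cstf2t, a cleavage stimulation factor, and Naa15, a subunit of an N-terminal acetyltransferase, both at 0.036, and Ythdc2, an RNA helicase, at 0.040. Socs4 itself varied by 0.135. None of these 6 is a gene of the cytokine lists below. Those lists hold 116 tested genes beside the 8915 genes of at least 10 CPM, so this absence carries no weight. The largest deviation was 0.40 in vehicle replicate 4 for Socs6 and -0.30 in dimethyl succinate replicate 1 for Socs4. The matches therefore lean on these libraries.

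Genes of the pathway around the family gave no call either. Of 130 genes on 14 lists covering cytokines, receptors, JAKs, STATs, their targets and SOCS box partners, 116 were tested, and 0 of these had an adjusted p below 0.05 by the quasi-likelihood test of edgeR. At an unadjusted p below 0.05, 5 were higher and 5 lower under dimethyl succinate, where 2.93% and 2.83% of all tested genes were. Leaving out vehicle replicate 4 gave 11 higher and 11 lower, where 4.43% and 4.12% of all genes were. The median log2 ratio was 0.018, or -0.00023 when that library was left out.

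Cytokines that signal through JAKs and STATs held 5 of these 10 genes. Of 14 tested, 3 were higher at that p, Il2, Il10 and Il13, and 2 were lower, Lif and Il6. Of all tested genes, 2.93% were higher and 2.83% lower. The list median was 0.12. Il13 and Il6 were picked after their values were seen. Il2 stood at 101 ± 11.9 CPM under vehicle and 125 ± 11.5 CPM with the ester (SD, n = 4). Its log2 ratio was 0.31 ± 0.092 (SE), or 0.24 without vehicle replicate 4, its lowest library at 84.0 CPM. Lif, a cytokine that uses gp130 and is restrained by SOCS3, stood at 277.3, 264.6, 266.8 and 276.4 CPM in vehicle replicates 1 to 4 and at 234.4, 232.5, 231.3 and 238.0 CPM in dimethyl succinate replicates 1 to 4. The groups of Lif were separated by more than the spread within either. Its log2 ratio was -0.21 ± 0.053 (SE), with an adjusted p of 0.646 in the quasi-likelihood test of edgeR, or 0.0533 without vehicle replicate 4. Ifng, the main inducer of Socs1, was at 182 ± 44.3 and 221 ± 41.3 CPM, and its log2 ratio of 0.28 ± 0.176 (SE) was 0.45 without vehicle replicate 4.

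Among receptors, Il10ra was the 1 gene with an unadjusted p below 0.05, where 5.76% of all tested genes had one. Log2 ratios of the receptors reached from -0.48 to 0.37. Those ends were Il9r and Il23r, picked after their values were seen, and both were near the floor. They averaged 1.05 and 1.88 CPM, on 9 to 24 and 9 to 43 counts per library. Without vehicle replicate 4 their log2 ratios were -0.62 and 0.10. Of 8 common gamma chain receptors, which carry signals of interleukin-2 and its relatives, 0 had such a p in the quasi-likelihood test of edgeR. Their median log2 ratio was 0.014 with 6 above 0, and -0.035 with 3 above 0 when vehicle replicate 4 was left out. Il2ra, the high-affinity chain of the interleukin-2 receptor, averaged 1959 ± 376 CPM in the vehicle group and 2106 ± 85.7 in the other (SD, n = 4), with 1397 CPM in vehicle replicate 4. Its log2 ratio of 0.10 was -0.027 without that library. Of 7 gp130 and interleukin-12 family receptors 0 had such a p, and Il6st, which encodes gp130, had a log2 ratio of 0.16 ± 0.089 (SE), or 0.068 when that library, at 79.4 CPM, was left out. Of 6 interferon and interleukin-10 family receptors 1 was lower, where 2.83% of all tested genes were. This was Il10ra, at 50.3 ± 3.13 and 43.1 ± 1.78 CPM. Its log2 ratio of -0.22 ± 0.073 (SE) was -0.22 without vehicle replicate 4 as well. Of 7 growth factor and hormone receptors and substrates 0 had such a p, with Igf1r at 0.11 ± 0.063. Without vehicle replicate 4, 1 was higher, Igf1r at 0.15, where 4.43% of all tested genes were.

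Of 4 JAKs, 0 had an unadjusted p below 0.05 in the quasi-likelihood test of edgeR, with Tyk2 at a log2 ratio of 0.13 ± 0.068 (SE) and Jak1 at -0.077 ± 0.057. Of 7 STATs, 6 lay above 0, as did 49.6% of all tested genes, with a median of 0.062. At that p 1 was higher, or 2 without vehicle replicate 4, where 2.93% and 4.43% of all tested genes were. The 1 was Stat6, which carries interleukin-4 signals, at 249 ± 32.6 and 291 ± 11 CPM (SD, n = 4), a log2 ratio of 0.22 ± 0.087 (SE), or 0.13 without vehicle replicate 4. Stat5a and Stat5b, the inducers of Cish and Socs2, had log2 ratios of 0.090 ± 0.068 and 0.060 ± 0.057, and Stat3, the inducer of Socs3, 0.056 ± 0.056.

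Among target genes of the pathway, Irf1, which interferon gamma induces, was lower at an unadjusted p below 0.05 in the quasi-likelihood test of edgeR. Irf1 averaged 533 ± 16.9 and 461 ± 34.8 CPM (SD, n = 4), a log2 ratio of -0.21 ± 0.068 (SE), or -0.20 without vehicle replicate 4. Of 8 STAT5 targets other than the members, 0 had such a p and the median was 0.0098. Bcl6, at a mean of 11.1 CPM, had a log2 ratio of 0.32 ± 0.151 (SE). It was 0.24 without vehicle replicate 4, and Bcl6 passed that p in neither fit. Bcl2, a survival factor, was at -0.13 ± 0.070. Of 10 STAT3 targets and 4 STAT6 targets 0 had such a p, with medians of 0.072 and -0.014. Vehicle replicate 4 bore on all of these. Without it, the STAT5 targets had a median of -0.031, and 2 passed that p, 1 in each direction, with Bcl2 the lower at -0.17. For STAT3 targets 2 were then higher and 2 lower, where 4.43% and 4.12% of all tested genes were, and the median was 0.0051. For STAT6 targets 1 was then lower, 0 of 4 lay above 0 and the median was -0.097.

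The machinery that works with the SOCS box and the other inhibitors of the pathway gave few such genes. Of 8 elongin and cullin partners 0 had an unadjusted p below 0.05 in the quasi-likelihood test of edgeR. Elob, Eloc and Cul5, which form the ligase with SOCS proteins, had log2 ratios of 0.12 ± 0.116, -0.094 ± 0.079 and -0.040 ± 0.070 (SE). Elob and Cul5 took the opposite sign without vehicle replicate 4, at -0.0035 and 0.017, and Elob stood at 63.6 CPM in that library against 92.8 to 101 CPM in the other vehicle libraries. Of 13 tested proteins with a SOCS box but outside the family, 1 was lower, where 2.83% of all tested genes were. This was Wsb1, at 154 ± 7.53 and 138 ± 6.6 CPM (SD, n = 4), a log2 ratio of -0.16 ± 0.061. Of 13 other inhibitors 1 was higher, where 2.93% of all tested genes were. This was Sh2b3, an adaptor that restrains JAK2, at 55.7 ± 8.31 and 69.0 ± 7.33 CPM, a log2 ratio of 0.31 ± 0.107. The ratio of Sh2b3 was 0.22 without vehicle replicate 4, its lowest library at 45.5 CPM. Ptpn2, a phosphatase of JAKs and STATs, stood at 85.1 ± 6.34 and 75.7 ± 6.63 CPM, a log2 ratio of -0.17 ± 0.080. Without vehicle replicate 4 the ratio of Ptpn2 was -0.15 and passed that p, where 4.12% of all tested genes were lower.

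**Figure D5:**
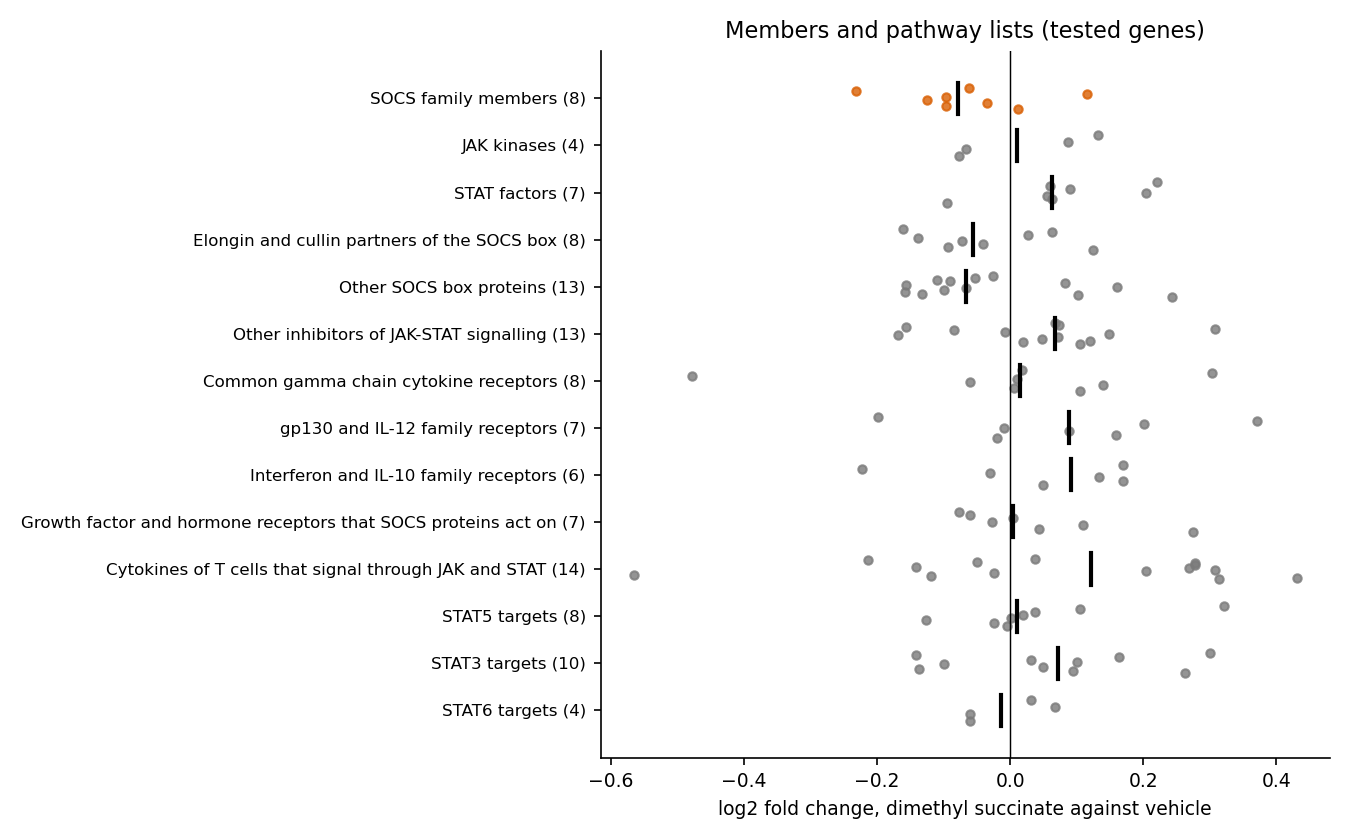
Log2 ratio, dimethyl succinate against vehicle, of each tested SOCS family member (orange) and each tested gene of 13 of the 14 pathway lists (grey), with the number tested in brackets and the list median as a black bar. The members lie between -0.23 and 0.11, within the range of the lists around them, and the cytokine list spreads widest.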

How the data were processed

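Spleen CD4+ T cells of 4 vehicle and 4 dimethyl succinate libraries were compared; groups and replicate numbers come from the titles. HISAT2 2.0.5 is named in the submitters' processing notes; for the counting tool, annotation, build and strand use, the entry is not given in the sources used here. Per the file headers, the authors deposited raw counts per gene, FPKM, normalised group means (a signal of unnamed scale, not used here), log2 fold changes and p-values with adjusted p-values. The start or end of 99.2% of 54409 genes matched by ID equalled GENCODE M21, so coordinates are read as GRCm38.

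Counts were tested with edgeR 4.0.16 (R 4.3.3): filterByExpr, TMM scaling and the quasi-likelihood F test (robust) over all 8 libraries, with Benjamini-Hochberg adjustment over 13981 genes, two-sided at 0.05. SEs come from the F statistic. CPM uses TMM-scaled library sizes, and log2 CPM a prior count of 2. No pair of libraries within a group came near counting noise (chi-square per gene at least 2.11), so none was treated as a library deposited again; this does not show separate animals or cultures. Alternatives were DESeq2 1.42.0, limma 3.58.1 (voom, and trend on log2(FPKM + 1) or log2(FPKM + 0.1)), other scalings and filters, a block for the title number, and leaving out each library. The test was checked on simulated counts.

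The members and lists were chosen with earlier results of these data known. Named genes are the members, up to 3 genes per pathway list with the smallest unadjusted p and at least 10 CPM, the genes nearest in pattern to 2 members, and 11 genes of the pathway whatever their values; exceptions are said to be so. A gene and a list among these are not reported here.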

Additional observations from a re-analysis of the deposited data

Results flagged for a closer look

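Single libraries far from the other 3 of their group were sought in 55 genes, the members and the genes named from the pathway by the rule, 110 groups in all, and 10 groups held one, where chance flags about 1 in 20, or 5.5. Among the members this was Socs4 in dimethyl succinate replicate 1, at 77.9 CPM against 97.0 to 100.1 CPM in the other 3. The same library was apart from its group for 4 further genes of the pathway: Sh2b3 at 79.9 CPM, Il2ra at 1980 CPM, Il21 at 172 CPM and Stat5b at 441 CPM. Over all tested genes, dimethyl succinate replicate 1 was the highest or lowest library for 33.1%, and vehicle replicate 4 for 58.3%. Vehicle replicate 4 was apart for Arih2 at 169 CPM, Il2ra at 1397 CPM, Bcl3 at 52.0 CPM and Gata3 at 127 CPM. Asb3 stood at 27.4 CPM in dimethyl succinate replicate 4, against 23.4 to 24.0 CPM in the other 3.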

How the results depend on the processing

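No member passed an adjusted p of 0.05 in any of the 18 alternatives run. Of 144 log2 fold changes of members under these alternatives, 139 kept their direction. The other 5 came from leaving out a library, where Cish ran from -0.027 to 0.077 and Socs2 from -0.088 to 0.011. Over all genes, 6 passed with no low-count filter, 1 with the replicate block, and 0 to 28 with 1 library left out, the 28 without vehicle replicate 4. Members with an unadjusted p below 0.05 numbered 1 with no low-count filter, 1 with the replicate block, and 0 to 1 with 1 library left out; each time it was Socs6. The block uses the number in the titles, which is not known to pair samples: deviations of same-numbered libraries correlated at -0.014 to 0.13. Vehicle replicates 3 and 4 correlated best with their own numbers, at 0.056 and 0.13. Vehicle replicate 1 did so with dimethyl succinate replicate 3, at 0.086, and vehicle replicate 2 with dimethyl succinate replicate 4, at 0.036. Neighbours in the order of levels were apart in 4 of 7 pairs per principal transcript length, and in 6 to 7 with 1 library left out. Of 14 pathway lists, 10 had a median above 0, or 8 without vehicle replicate 4. The groups of 1 member, Socs1, did not overlap under each of the other scalings, a check chosen after seeing the data, as was the principal transcript length. Depth limits Socs5 and Socs6 most, with counting alone giving a coefficient of variation near 5% per library.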
